A study of Mus musculus with 4 samples.

Results

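In mouse thymocytes, 3332 TOP2B peaks were called with the Santa Cruz antibody only and lay inside protein-coding genes but outside exons, far from protein-coding transcription starts. They were chosen by 3 criteria read from the deposited lists. The peak shared no base with any peak of the Novus antibody, its centre lay inside a protein-coding gene but in no annotated exon, and the nearest protein-coding transcription start was more than 20 kb away (GENCODE M1, mouse genome build mm9). These peaks, called members from here on, made up 19.9% of the 16751 Santa Cruz-only peaks and 18.8% of the 17753 distinct peaks of the whole Santa Cruz list (17754 rows, 1 of them a repeat). Of the members, 55 lay in no intron of a coding transcript and were kept, as the rule asks only for a gene and no exon. Starts of noncoding transcripts were not part of the rule. Sharing no base with a Novus peak was the common state in this list: it held for 94.4% of all distinct Santa Cruz peaks and for 95.6% of the 3486 in deep introns, "deep" meaning more than 20 kb from a coding start. The Novus list was much shorter, with 3564 rows in all and 576 peaks in deep introns. That length limits how many Santa Cruz peaks can be shared, so these shares by themselves do not measure disagreement between the antibodies. In the other direction, 426 of the 576 Novus deep intron peaks shared no base with a Santa Cruz peak. Why most deep intron peaks of either list were not shared was not tested. Since the absence from the Novus list, the intron and the distance chose the members, those properties are given below as a description and carry no test.

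The chromatin came from freshly isolated thymocytes of wild-type C57BL/6 mice of 4 to 6 weeks, fixed with formaldehyde, and no treatment or mutation was applied to either library used here. One library was precipitated with the Santa Cruz antibody (sc13059) and the other with the Novus antibody (NB100-40842), both against TOP2B, and both were made by ChIPmentation, in which a transposase adds the sequencing adapters to chromatin on the beads. The thymus was dissociated as a whole, so B cells, myeloid cells and stroma could also be present, and a peak list from pooled cells cannot tell fewer bound cells from weaker binding per cell. With 1 library per antibody there was no replicate, antibody and library cannot be told apart, and every interval below covers counting error over peaks only. The lists give the position of each peak without its reads or height, every score being 0, so the depth behind a peak is unknown here. The TOP2A and IgG libraries of the series were not analysed here.

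TOP2B is a type II topoisomerase. It cuts both strands of a DNA duplex, passes another duplex through the gap and reseals the break, which removes the supercoils and tangles that transcription and chromosome folding produce, and it is the form of the enzyme used by cells that are not dividing. It is known to sit at promoters, at enhancers and at sites bound by CTCF and cohesin, the zinc-finger protein and the ring complex that together hold the bases of chromatin loops. Introns of long genes can carry both enhancers and CTCF sites, and in thymocytes the factors of the RUNX, ETS, TCF/LEF, E-protein, GATA and Ikaros families are known to bind enhancers.

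The members that held an exact match to the 12-letter CTCF core inside the peak show what one kind of member looks like. The first below lay in Prkcb, which encodes protein kinase C beta, and was the only such member in a gene of the transcription factor and receptor signalling lists used further on. The other 6, chosen after the data were seen, had their match closest to the peak centre. All 7 are given 5′ to 3′ on the forward strand of mm9, 187 bp each, with the CTCF core in capitals.
Prkcb, chr7:129603129-129603315: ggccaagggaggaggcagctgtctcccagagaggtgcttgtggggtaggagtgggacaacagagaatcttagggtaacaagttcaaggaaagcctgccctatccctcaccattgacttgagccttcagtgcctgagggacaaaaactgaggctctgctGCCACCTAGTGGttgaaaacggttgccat
Fam49a, chr12:12325065-12325251: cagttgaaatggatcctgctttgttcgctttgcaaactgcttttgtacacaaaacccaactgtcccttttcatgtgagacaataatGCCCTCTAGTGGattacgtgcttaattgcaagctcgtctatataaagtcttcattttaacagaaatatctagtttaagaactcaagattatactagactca
A430107O13Rik, chr6:22072079-22072265: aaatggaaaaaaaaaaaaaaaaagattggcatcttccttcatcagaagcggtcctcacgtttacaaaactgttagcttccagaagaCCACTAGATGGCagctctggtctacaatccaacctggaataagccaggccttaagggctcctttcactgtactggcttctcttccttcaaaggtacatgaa
Fam125b, chr2:33677258-33677444: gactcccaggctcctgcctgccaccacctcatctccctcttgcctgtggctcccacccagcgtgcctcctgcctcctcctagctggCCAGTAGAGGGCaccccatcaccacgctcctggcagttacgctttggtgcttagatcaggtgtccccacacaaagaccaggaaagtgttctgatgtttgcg
Rfx8, chr1:39742799-39742985: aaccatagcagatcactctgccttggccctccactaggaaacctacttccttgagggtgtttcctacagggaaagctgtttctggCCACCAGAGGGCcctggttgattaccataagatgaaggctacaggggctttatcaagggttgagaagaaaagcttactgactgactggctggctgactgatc
D6Mm5e, chr6:82946740-82946926: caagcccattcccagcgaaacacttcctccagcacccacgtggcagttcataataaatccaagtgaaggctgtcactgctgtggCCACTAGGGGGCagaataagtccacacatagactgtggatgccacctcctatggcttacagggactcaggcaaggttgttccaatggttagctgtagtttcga
Ttc15, chr12:29384626-29384812: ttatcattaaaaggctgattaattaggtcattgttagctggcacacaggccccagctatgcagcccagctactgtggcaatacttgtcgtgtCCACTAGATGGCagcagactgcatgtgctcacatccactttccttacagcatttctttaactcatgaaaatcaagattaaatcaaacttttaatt

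The Prkcb peak lay in intron 5 of 16, 170 kb from the nearest coding start, and its match was on the reverse strand, 70.5 bp from the peak centre. A Novus peak began only 0.038 kb away from it, so it missed the shared class by a short distance. In Fam49a, A430107O13Rik and Fam125b the match lay 1.5 bp from the peak centre, that is, in the middle of the deposited interval. For A430107O13Rik the nearest Novus peak was 1021 kb away, and for Rfx8 it was 109 kb away, so an exact CTCF core occurred also where no Novus peak was near.

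A further 5 members are shown because their host genes encode transcription factors of the T lineage. For each gene the member with the most of 11 short motifs was taken, and those motifs are in capitals. The letters searched on both strands were TGTGGT for RUNX, CAGGAAG for ETS, TTCAAAG for TCF/LEF, CAGCTG and CAGGTG for 2 forms of the E-box, AGATAA for the GATA motif, TGANTCA for AP-1, TGGGAA for Ikaros, TGGAAA for NFAT, GGGCGG for the GC box and the CCAAT box by its own letters. None of these 5 peaks held a CTCF core.
Runx1, chr16:92767824-92768010: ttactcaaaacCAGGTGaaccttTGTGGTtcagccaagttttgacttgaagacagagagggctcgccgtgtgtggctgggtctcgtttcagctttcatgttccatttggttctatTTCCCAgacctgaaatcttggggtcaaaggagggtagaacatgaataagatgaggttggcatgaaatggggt
Lef1, chr3:130911537-130911723: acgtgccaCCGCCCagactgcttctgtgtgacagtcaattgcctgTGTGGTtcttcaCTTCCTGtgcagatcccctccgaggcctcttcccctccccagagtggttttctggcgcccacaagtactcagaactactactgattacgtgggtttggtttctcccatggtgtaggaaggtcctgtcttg
Ets1, chr9:32548639-32548825: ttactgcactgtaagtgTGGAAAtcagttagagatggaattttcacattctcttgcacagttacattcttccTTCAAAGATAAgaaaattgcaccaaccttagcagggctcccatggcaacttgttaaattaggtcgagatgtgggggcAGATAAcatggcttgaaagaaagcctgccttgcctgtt
Ikzf1, chr11:11626012-11626198: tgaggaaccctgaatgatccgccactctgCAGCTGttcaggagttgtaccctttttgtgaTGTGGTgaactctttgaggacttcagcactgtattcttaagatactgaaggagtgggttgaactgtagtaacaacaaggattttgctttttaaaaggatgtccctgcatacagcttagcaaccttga
Satb1, chr17:51902021-51902207: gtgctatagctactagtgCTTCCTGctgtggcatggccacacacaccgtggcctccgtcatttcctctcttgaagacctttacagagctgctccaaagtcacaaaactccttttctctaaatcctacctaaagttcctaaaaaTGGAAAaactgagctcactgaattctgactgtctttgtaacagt

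The Runx1 peak carried RUNX, E-box and Ikaros letters, and the Lef1 peak carried RUNX, ETS and GC box letters. In the Ets1 peak the TCF/LEF and one of the GATA matches overlapped. A match is only a run of letters, and no binding of these factors was measured here.

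The next 3 members stand for the 3 host genes with the most members, each being the one whose nearest other member was closest. The short motifs are again in capitals.
Gm20388, chr8:123542564-123542750: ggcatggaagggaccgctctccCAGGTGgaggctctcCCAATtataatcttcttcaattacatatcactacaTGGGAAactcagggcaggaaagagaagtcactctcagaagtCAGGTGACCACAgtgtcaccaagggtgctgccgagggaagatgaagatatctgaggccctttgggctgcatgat
Eif4e3, chr6:99435307-99435493: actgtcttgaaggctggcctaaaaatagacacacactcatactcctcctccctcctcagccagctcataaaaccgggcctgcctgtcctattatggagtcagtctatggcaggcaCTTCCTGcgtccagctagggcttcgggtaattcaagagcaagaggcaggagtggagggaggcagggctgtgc
Wwox, chr8:117411516-117411702: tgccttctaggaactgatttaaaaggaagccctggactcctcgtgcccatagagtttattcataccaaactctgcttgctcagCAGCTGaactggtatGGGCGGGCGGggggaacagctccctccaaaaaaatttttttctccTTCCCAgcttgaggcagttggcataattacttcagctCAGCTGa

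The Eif4e3 peak had another member 0.784 kb away, the Gm20388 peak had one 2.25 kb away and the Wwox peak one 2.45 kb away. Such close pairs are described with the spacing of the members below.

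Deep introns made up 541 Mb of mm9, 21.1% of the 2556 Mb of known sequence, and held 6.16 members per Mb (95% exact Poisson interval 5.96 to 6.38). The whole Santa Cruz list had 6.95 peaks per Mb of known sequence, and all Santa Cruz-only peaks together had 6.55. Santa Cruz-only peaks in introns 1 to 20 kb from a coding start numbered 3237, or 9.42 per Mb (9.1 to 9.75), and Santa Cruz-only intergenic peaks more than 20 kb from a start numbered 4690, or 3.77 per Mb (3.67 to 3.88). The density of the members thus lay between those of the other 2 Santa Cruz-only classes. Only 154 deep intron peaks of the Santa Cruz list shared a base with a Novus peak, 0.285 per Mb (0.242 to 0.334).

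Within deep introns the members thinned out with distance from the start. Between 20 and 30 kb there were 769 members, or 8.03 per Mb (7.47 to 8.62). The density was 7.61 per Mb (7.13 to 8.12) from 30 to 50 kb and 6.72 per Mb (6.3 to 7.16) from 50 to 100 kb, then 4.32 per Mb (3.93 to 4.74) from 100 to 200 kb and 3.35 per Mb (2.92 to 3.82) from 200 to 500 kb. Beyond 500 kb only 15 members were left, 1.28 per Mb (0.717 to 2.11). Neighbouring intervals overlapped up to 100 kb and did not beyond it. The median distance of the members was 49.4 kb (quartiles 31 and 87 kb, maximum 975 kb), against 63 kb for all deep intron bases (quartiles 35 and 130 kb).

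The same thinning appeared with the length of the host gene. Genes under 100 kb had 8.76 members per Mb of deep intron (8.19 to 9.36), genes of 100 to 200 kb had 7.9 (7.4 to 8.43) and genes of 200 to 500 kb had 5.95 (5.6 to 6.33). Genes of 500 to 1000 kb had 3.69 (3.29 to 4.12), and the 52 genes over 1000 kb had 2.78 (2.38 to 3.22). Long genes nevertheless almost always held a member: 92.3% of the genes over 1000 kb did, against 14.6% of the 4926 eligible genes under 100 kb. Distance from the start and length of the gene move together, and their separate parts in this decline were not tested.

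**Figure D1:**
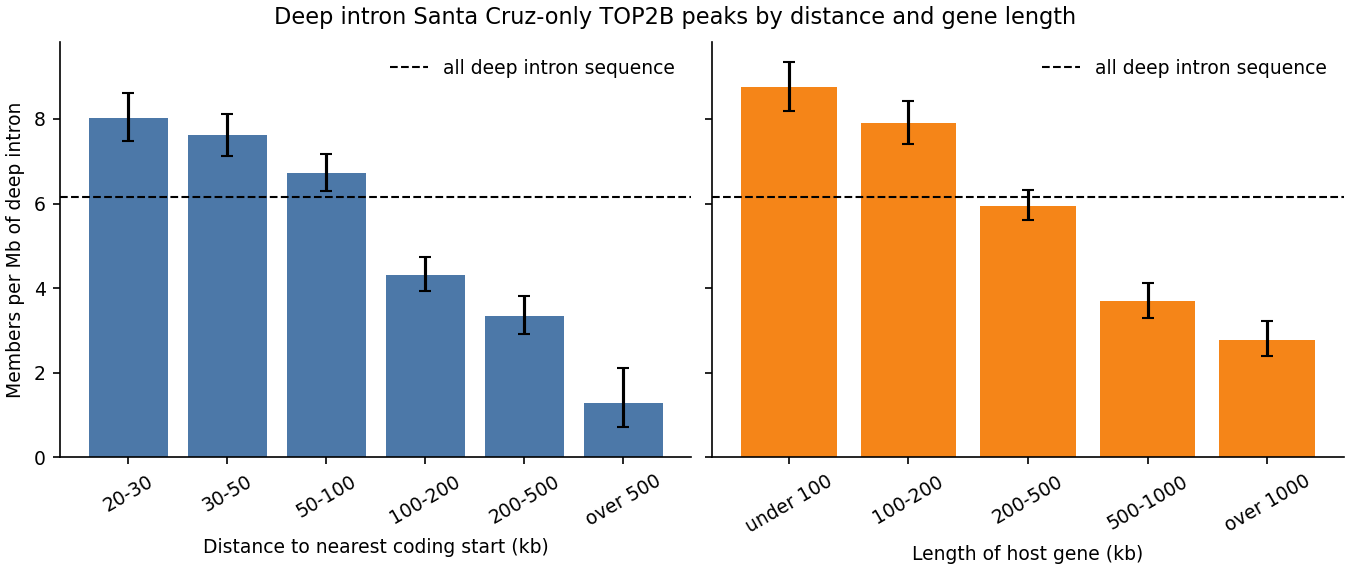
Members per Mb of deep intron sequence (y axis) by distance to the nearest protein-coding start (left, kb) and by length of the host gene (right, kb), with 95% exact Poisson intervals as bars and the mean of 6.16 per Mb as a dashed line. The density falls from 8.03 per Mb at 20 to 30 kb to 1.28 per Mb beyond 500 kb, and from 8.76 per Mb in genes under 100 kb to 2.78 per Mb in genes over 1000 kb.

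Along the gene from its 5′ to its 3′ end, the 5 equal parts held 322, 645, 736, 843 and 786 members. They hold 11.4%, 20.5%, 23%, 23.7% and 21.4% of deep intron bases. Per Mb of deep intron the parts had 5.22, 5.82, 5.93, 6.58 and 6.79 members, the lowest in the first and the highest in the last. Because the rule leaves out 20 kb around each start, the first part draws mostly on longer genes, which had fewer members per Mb. Position and gene length were not separated here. First introns held 593 members, 17.8% (95% Clopper-Pearson interval 16.5 to 19.1), beside 18.4% of deep intron bases. Last introns held 268, or 8.04%, beside 7.54% of the bases. By intron number, then, the members followed the sequence available.

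The members sat in sequence richer in GC than deep introns as a whole, a trait shared with the other classes of Santa Cruz peaks. Median GC was 47.5% in the intron peaks closer to a start, 47% in the Novus-shared deep intron peaks and 45.1% in the intergenic peaks. The median GC content of the 501 bp around the centres of the members was 45.7% (quartiles 41.7 and 49.3), against 41.5% (37.3 and 45.7) over all deep intron windows of that length. Above 45% GC were 54.6% of the members but 29% of the windows. CpG-rich windows remained rare, with 8 members or 0.24%, beside 1.2% of the closer intron peaks, 0.649% of the shared deep peaks and 1.13% of the intergenic peaks. Only 31 members (0.93%, 0.633 to 1.32) lay within 1 kb of the start of an annotated noncoding transcript, a zone that covers 0.632% of deep intron sequence.

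By chromosome the density ran from 5.19 per Mb on chromosome 14 to 8.98 per Mb (7.83 to 10.3) on chromosome 11 among the autosomes. In the whole lists, chromosome 14 had 5.6 Santa Cruz and 1.2 Novus peaks per Mb of known sequence, and chromosome 11 had 11.3 and 2.35. This autosomal range was thus not particular to the members. On the X chromosome the density of the members was 2.48 per Mb (1.91 to 3.16), with 65 members. The X chromosome was low in both lists as a whole, with 2.24 Santa Cruz peaks and 0.346 Novus peaks per Mb of known sequence, against 7.26 and 1.47 on the autosomes. The low number was thus shared by both antibodies and was not limited to deep introns.

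The gap from each member to the nearest Novus peak was measured, with overlaps already removed by the rule. The Novus list is sparse, with 3564 rows over 2556 Mb of known sequence. The gap expected at other positions was not computed, so the values below do not show whether members lie unusually far from Novus peaks. The median gap was 168 kb (quartiles 59.8 and 420 kb), 193 members (5.79%) had a Novus peak within 10 kb and 66 (1.98%) within 1 kb. Just inside the rule, the members in Nebl and Wwox touched a Novus peak without sharing a base, and the members in Mdfic and Sh3rf1 were 2 and 4 bp away. Just outside it, peaks in Txk, Mbnl2 and Tex9 shared 3, 4 and 7 bp. At the distance limit, members in Slc13a3, Cdkal1 and Sipa1l1 were 20011, 20014 and 20019 bp from a start, and peaks in Cd86, Rcan1 and Map4k4 were 19999, 19995 and 19990 bp from one.

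The CTCF core, the central part of the sequence that CTCF recognises, was searched within 250 bp of each peak centre, on both strands and with up to 1 mismatch. It was found at 411 of the 3332 members, 12.3% (11.2 to 13.5), while 3.72% of all 501-bp windows of deep intron sequence held it. Weighting those windows to the GC content of the members raised their share to 4.59%. Without a mismatch the core was found at 109 members, 3.27%, beside 0.226% of the windows. The members with a CTCF core were spread over 371 host genes.

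Deep intron peaks that were shared with Novus held the core far more often, at 77 of 154 or 50% (41.8 to 58.2). The members were lower by 37.7 percentage points (interval of the difference -45.5 to -29.8; two-sided Fisher's exact test, adjusted p = 2.01e-26 over the 36 comparisons of the family). Novus-only deep intron peaks, 426 in number, held it at 22.1%. The 66 members with a Novus peak within 1 kb held it in 14 cases, 21.2% (12.1 to 33), and the 3266 members farther away in 397 cases, 12.2% (11.1 to 13.3). The members near a Novus peak thus had a higher share than the rest of the members, with intervals that overlapped, and a lower share than the shared peaks.

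Against Santa Cruz-only intron peaks closer to a start, the difference was small. Those held the core at 514 of 3237, 15.9% (14.6 to 17.2), and the members were lower by 3.54 percentage points (-5.23 to -1.86; two-sided Fisher's exact test, adjusted p = 0.000687). By the same Fisher's exact test, that call was lost at a limit of 10 kb (adjusted p = 0.135), where the closer class became 1 to 10 kb. At a limit of 50 kb, with a closer class of 1 to 50 kb, the difference was -5.1 percentage points (Fisher's exact test, adjusted p = 2.72e-06). At the 20 kb limit, the call was also lost when no mismatch was allowed (Fisher's exact test, adjusted p = 0.17). By GC class, the members had 10.5% against 16.2% for the closer intron peaks at 40% GC or less, 10.9% against 15.5% at 40 to 45% GC, 12.2% against 13.4% at 45 to 50% GC, 15.5% against 18.2% at 50 to 55% GC and 16.7% against 19.6% over 55% GC. The members were lower in each class, and these class values were not tested.

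Against Santa Cruz-only intergenic peaks more than 20 kb from a start, no difference was found. Those held the core at 570 of 4690, 12.2% (11.2 to 13.1), which left a difference of 0.181 percentage points (-1.26 to 1.65; two-sided Fisher's exact test, adjusted p = 0.892). The members and these intergenic peaks were thus not distinguishable by this motif at this number of peaks. At 40% GC or less, the members had 10.5% (8.03 to 13.4) against 6.07% (4.55 to 7.91) for the intergenic peaks, intervals that did not overlap. At 40 to 45% GC the values were 10.9% against 10.7%. In the richer classes the members had the lower values, 12.2% against 13.6%, 15.5% against 18% and 16.7% against 18.2%, with intervals that overlapped. These class values were not tested.

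Among the members themselves the CTCF share was lower farther from the start. It was 14.7% (12.3 to 17.4) at 20 to 30 kb, 14.1% (11.9 to 16.5) at 30 to 50 kb, 11.4% (9.45 to 13.6) at 50 to 100 kb, 9.64% (7.07 to 12.8) at 100 to 200 kb and 6.81% (3.94 to 10.8) beyond 200 kb. Neighbouring intervals overlapped, while those of the nearest and the farthest members did not. The median GC content of the same members was 45.7%, 46.5%, 45.7%, 44.6% and 43.5%, and its part in the decline was not tested.

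**Figure D2:**
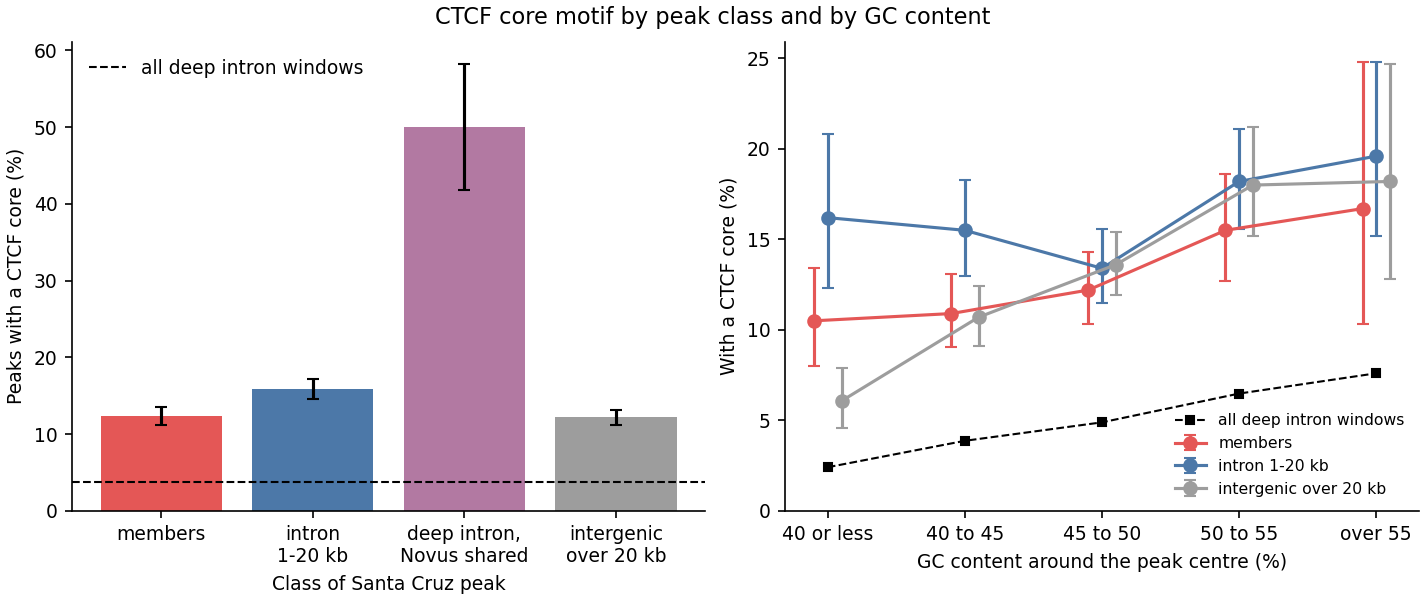
Share of peaks with a CTCF core within 250 bp of the centre (y axis, percent) by class of Santa Cruz peak (left) and by GC content of the 501-bp window (right), with 95% Clopper-Pearson intervals as bars, the dashed lines giving the share of all deep intron windows. The members stand at 12.3%, above the 3.72% of the windows and well below the 50% of the Novus-shared deep intron peaks, and exceed the windows in every GC class.

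Where the CTCF core lay inside the peak itself, its position and direction could be read. That was so for 220 members, 6.6%, of which 63 were exact, and for 53 or 34.4% of the Novus-shared deep intron peaks. The centre of the match was a median of 41 bp from the peak centre in the members (quartiles 17.5 and 64.8) and 39.5 bp in the shared peaks (15.5 and 65.5). Of the 220 matches, 90 were on the strand of the host gene and 130 on the other, so 40.9% (34.3 to 47.7) pointed along the gene. The corresponding share was 44.1% (38.4 to 50) in the intron peaks closer to a start and 30.2% (18.3 to 44.3) in the shared deep peaks, with intervals that overlapped.

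The short motifs of thymocyte factors were read inside the 187-bp peaks, and the members fell into 3 groups against deep intron windows of equal length. The first group lay above the windows also after these were weighted to the GC content of the members. It held ETS at 10.4% against 7.4%, RUNX at 16.7% against 13.8%, the E-box CAGCTG at 11.1% against 9.07%, the E-box CAGGTG at 16.5% against 13.5% and the GC box at 3.24% against 2.49%. The second group was close to the weighted windows: TCF/LEF at 4.2% against 4.19%, GATA at 10.1% against 10%, AP-1 at 6.09% against 5.49% and Ikaros at 16.9% against 17.4%. The last lay below them, with NFAT at 15.4% against 17.7% and the CCAAT box at 21.8% against 24.9%. Unweighted, the windows held ETS at 5.91%, RUNX at 13.1%, CAGCTG at 6.88%, CAGGTG at 10.8%, the GC box at 1.52%, TCF/LEF at 5.03%, GATA at 12.7%, AP-1 at 5.69%, Ikaros at 15.8%, NFAT at 19.4% and the CCAAT box at 26.2%. For the first and last groups the weighted share of the windows was outside the interval of the members. At least 1 RUNX, ETS, TCF/LEF or E-box match was present in 1552 members (46.6%), at least 2 of these motifs in 356 (10.7%), and 692 members (20.8%) held none of the 12 motifs, CTCF included.

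**Figure D3:**
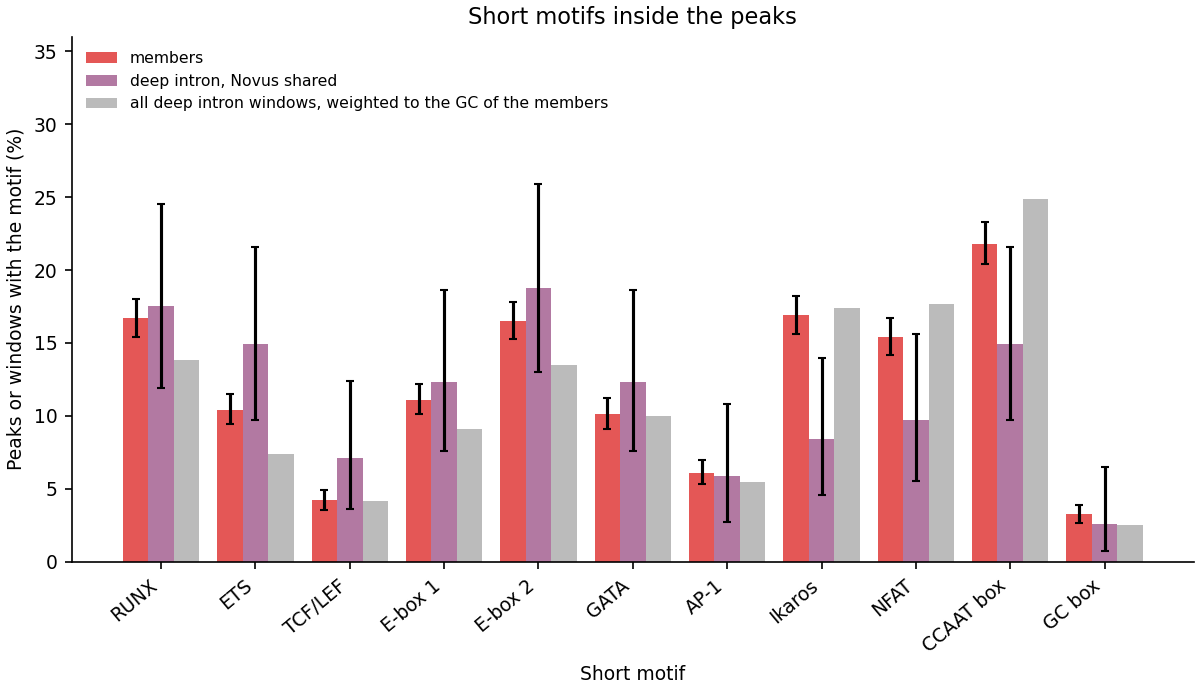
Share of peaks with each short motif inside the 187-bp peak (y axis, percent) for the members, for Novus-shared deep intron peaks and for all deep intron windows weighted to the GC content of the members, with 95% Clopper-Pearson intervals for the peaks (E-box 1 is CAGCTG, E-box 2 is CAGGTG). ETS stands at 10.4% in the members against 7.4% in the windows and NFAT at 15.4% against 17.7%.

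Between the classes of peaks, these short motifs differed little. Of the 36 comparisons of 12 motifs with 3 classes, 2 passed the threshold, both of them the CTCF comparisons given above, and 8 had an unadjusted p under 0.05 by Fisher's exact test. Against the Novus-shared deep peaks the Ikaros motif was more frequent in the members, 16.9% against 8.44% (4.57 to 14), which missed the threshold (two-sided Fisher's exact test, p = 0.00516, adjusted p = 0.053). The NFAT motif stood at 15.4% against 13% in the intron peaks closer to a start (two-sided Fisher's exact test, p = 0.00588, adjusted p = 0.053). ETS stood at 10.4% against 8.85% in the intergenic peaks (two-sided Fisher's exact test, p = 0.0167, adjusted p = 0.12), an interval of the difference of 0.29 to 2.93 percentage points. With only 154 shared peaks, those comparisons left wide intervals, for example -7.76 to 4.48 percentage points for RUNX.

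The members lay in 1941 host genes of the 7296 that have any deep intron sequence, 26.6%. Most of these genes held a single member, as 1226 of them did (63.2%), while 77 genes held 5 or more and together 491 members (14.7%). A further 45 members lay in more than 1 gene and were counted for the shorter one. In addition, 95 of the 147 genes with a Novus-shared deep intron peak also held a member. Among all eligible genes, the share with a member was 14.6% under 100 kb and 40.4% at 100 to 200 kb. It was 64% at 200 to 500 kb and 80.4% at 500 to 1000 kb. The 147 genes were not compared with genes of the same length, so the count does not show that the 2 classes share genes preferentially.

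Several of the fullest genes have very long annotated models. Gm20388 on chromosome 8 led with 23 members, and it is a single transcript model of 4435 kb with a first intron of 4384 kb. All 23 lay in introns over 1 Mb, at 20.7 to 165 kb from the nearest coding start. Through such a model the rule can count peaks that lie between other genes as intron peaks. Eif4e3, which encodes a cap-binding translation factor, held 13, of which 11 lay outside its 41.6 kb coding transcript and inside a 409 kb transcript annotated as a retained intron. Fgfr2, a fibroblast growth factor receptor, held 8, all inside an intron of a 3009 kb model, whereas its next longest transcript is 104 kb. In all, 41 members lay in introns over 1 Mb, also counting 7 in Arfip1 and 3 in Kcnip4. Leaving these 41 out brought the members to 3291, with a CTCF share of 12.4%.

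Among the genes of ordinary models, Wwox, an oxidoreductase gene known for a common fragile site, held 11 members and 2 Novus-shared peaks. In all, 10 of its members lay in the last intron, number 8, which is 639 kb long. A further 4 genes held 9 members. Of these, Ldlrad3, a receptor of the LDL receptor family, had 53.3 per Mb of deep intron, and Lass6, a ceramide synthase, had 39.9. Arid1b, a subunit of the SWI/SNF remodelling complex, had 29.9, and Sdk1, a large adhesion gene, only 9.98, since its deep intron sequence is 901 kb. Fam125b, an ESCRT-I subunit, held 8 members at 62 per Mb, 3 of them with a CTCF core. With 8 members each followed Snx29, a sorting nexin, at 26.1 per Mb, Fstl4, a follistatin-like gene, at 20.1, St6galnac3, a sialyltransferase, at 16, and Exoc4, a subunit of the exocyst, at 11.6.

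Enthd1 had the highest density of the 20 fullest genes, 7 members in 86.5 kb of deep intron or 81 per Mb, none with a CTCF core. Also with 7 members, and among the 20, were Sipa1l1, a GTPase-activating protein for Rap, Ctif, a translation initiation factor, Jazf1, a zinc-finger gene, Msi2, an RNA-binding protein of stem cells, Cacna1d, a calcium channel subunit, and Rabgap1l, a Rab regulator. Their densities ran from 15.3 per Mb in Rabgap1l to 32.7 in Sipa1l1. Of the 20 genes, 4 also held a Novus-shared deep intron peak, namely Wwox, Exoc4, Sipa1l1 and Jazf1.

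**Figure D4:**
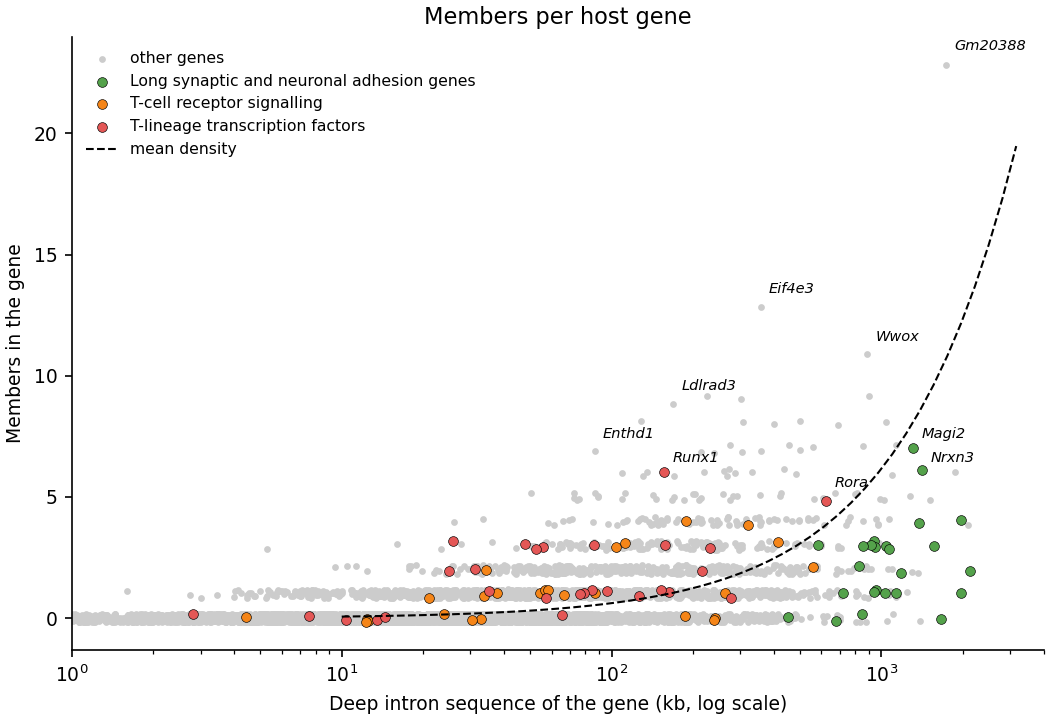
Members in each eligible gene (y axis, points spread slightly to show overlap) against its deep intron sequence (x axis, kb, log scale), with the mean density of 6.16 per Mb as a dashed line. Gm20388 and Eif4e3 stand highest with 23 and 13 members, T-lineage factors such as Runx1 lie above the line, and most of the long synaptic genes lie below it.

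The thymocyte genes were looked at through lists written with earlier results of these data known, so their counts are descriptions. Of 35 transcription factors of the T lineage, 28 had deep intron sequence and 22 of those held a member, 78.6%, against 26.6% of all eligible genes. They held 48 members, 16.2 per Mb (11.9 to 21.4), where their sequence at the density of genes of the same length would hold 19. The median of the list was 1 member per gene and that of all eligible genes was 0. Of the 48 members, 2 had a CTCF core, beside 12.3% of all members, a difference that was not tested. The 6 eligible factors without a member were Bcl11b, Myb, Notch1, Runx3, Stat5b and Tcf7. Their deep intron sequence ran from 2.8 kb in Runx3 to 65.8 kb in Bcl11b.

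Of these factors, 9 held 3 or more members, 32 in all. Runx1, a factor required for blood stem cells and again for thymocyte development, held 6, at 38.2 per Mb. All 6 lay in its second intron of 130 kb, between 24.4 and 58.3 kb from the nearest coding start, and formed 2 close pairs with gaps of 2.17 and 1.8 kb. The member at chr16:92801795-92801981 was the only one of the 6 with a CTCF core, and the nearest Novus peak to any of them was 6.09 kb away. Rora, a nuclear receptor of innate lymphoid and T helper cells, held 5, all in a first intron of 542 kb, between 113 and 313 kb from a start.

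Lef1, a partner of beta-catenin in early thymocytes, held 3 members in its last intron of 18.8 kb, one pair of which was 0.814 kb apart. Satb1, a chromatin organiser of thymocytes, held 3 in only 25.9 kb of deep intron, or 116 per Mb. Ikzf1, which encodes Ikaros, and Ikzf3, which encodes Aiolos, held 3 each, at 62.7 and 57.4 per Mb. Ets1 held 3 at 53.8 per Mb, 2 of them in intron 5. Bach2, a repressor of effector differentiation, held 3 in its first intron, and Zbtb16, the factor of innate-like NKT cells, held 3 at 19 per Mb. Elf1, Foxp1 and Stat3 held 2 each. Of the 9 genes, Rora was the only one with a Novus-shared deep peak.

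**Figure D5:**
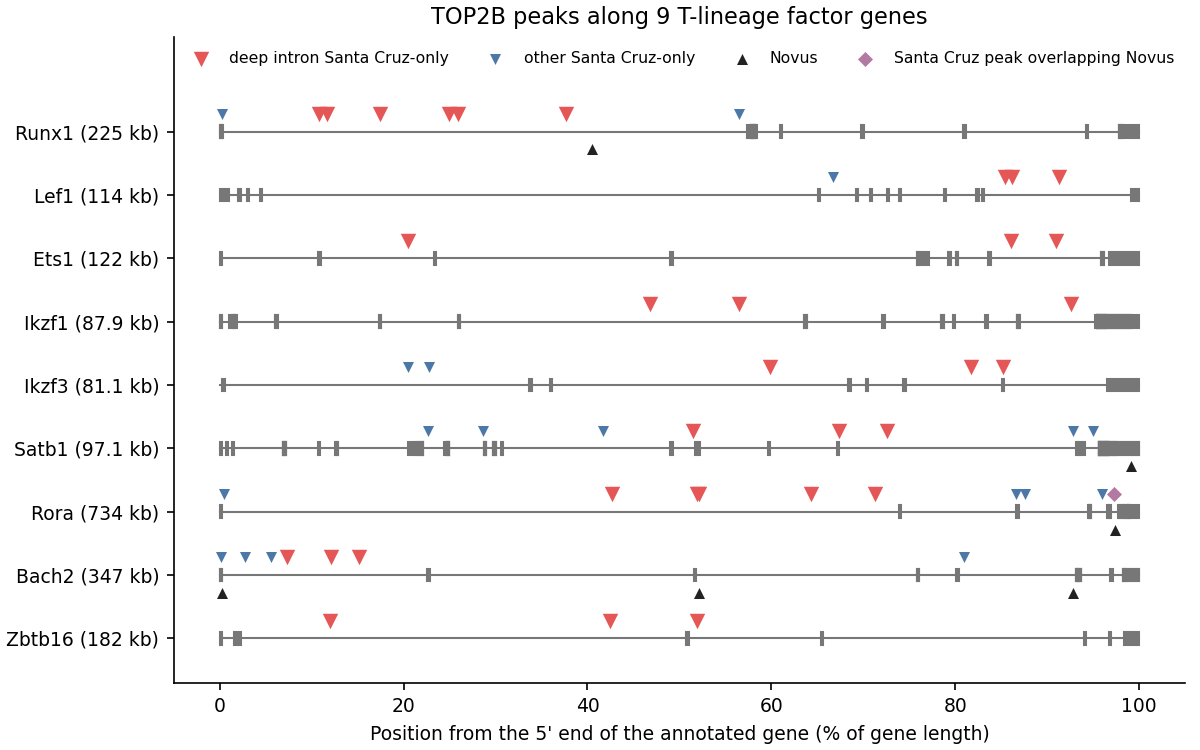
TOP2B peaks along 9 T-lineage factor genes drawn from the 5′ end to the 3′ end of each annotated gene (x axis, percent of gene length; gene length in kb beside the name), with exons of coding transcripts as grey boxes at a minimum width. Large red triangles are members, small blue triangles other Santa Cruz-only peaks, diamonds Santa Cruz peaks shared with Novus and black triangles Novus peaks. The 6 members of Runx1 all lie in its long second intron, and the 3 of Lef1 in its last one.

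Of 36 genes of T-cell receptor signalling, 26 had deep intron sequence and 16 held a member, 61.5%. They held 30 members, 9.36 per Mb (6.31 to 13.4), where 18.7 would be held at the density of genes of the same length. Dock10, a guanine nucleotide exchange factor, held 4, in introns 1, 2, 15 and 27 of 56, 2 of them with a CTCF core. Prkcb also held 4, again 2 with a core, including the exact one printed above. Cblb, a ubiquitin ligase that restrains the receptor, held 3 at 26.9 per Mb. Elmo1, a partner of DOCK proteins, held 3 at 7.27 per Mb. Cd247, the receptor zeta chain, Fyn, Lcp2, Prkcq, Rasgrp1 and Ptprc, the CD45 phosphatase, held 1 each. Among the listed genes without a member were Vav3, Dock2 and Themis, with 241, 239 and 187 kb of deep intron.

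The small genes of thymocyte receptors offered little deep intron. Of 24 genes, 11 were eligible with 0.253 Mb in all, and 4 (36.4%) held 5 members, 19.8 per Mb (6.43 to 46.2), where 2.2 would be held at the density of genes of the same length. Tgfbr2, a TGF-beta receptor chain, held 2, and Cd44, Cd6 and Il21r held 1 each. Cd3e, Cd4 and Cd8a had no deep intron sequence and so could not hold a member. Of the markers that could, Ptprc held 1 member and Bcl11b none. Of the genes of the TOP2B and cohesin machinery, 15 of 16 were eligible and 3 (20%, against 26.6% of all eligible genes) held 1 member each, at 3.94 per Mb (0.812 to 11.5), where 5.73 would be held at the density of genes of the same length. These were Stag2 and Pds5b, which encode a cohesin subunit and a cohesin regulator, and Esco1, a cohesin acetyltransferase.

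Long neuronal genes were sparser per Mb. Of 25 genes of synapses and neuronal adhesion, 21 held a member, 84%, but their 57 members were spread over 28.5 Mb, at 2 per Mb (1.51 to 2.59). At the density of genes of the same length they would hold 84.9. Magi2, a synaptic scaffold, held 7 at 5.34 per Mb and Nrxn3, a presynaptic neurexin, held 6 at 4.25 per Mb. Lrp1b, a receptor of the LDL receptor family, held 4 that lay 778 to 975 kb from a start, the farthest of all members among them. Cntnap2, a neurexin-family gene of 2241 kb, held only 2, and Ptprd, a receptor phosphatase of 2271 kb, held 1 at 0.506 per Mb. Of the 57 members, 1 had a CTCF core, beside 12.3% of all members and 6.81% of those more than 200 kb from a start. This difference was not tested.

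Genes of the other cells of a thymus were few and their values uncertain. Of 8 eligible B-cell genes 3 held 6 members, 6.68 per Mb (2.45 to 14.5), where genes of the same length would hold 5.96. Those were Ebf1, the early B-cell factor, with 3, Blk, a Src-family kinase, with 2, and Blnk, an adaptor of the B-cell receptor, with 1, while Pax5 held none. Of 5 eligible myeloid genes none held a member, in 0.201 Mb where 1.6 would be held at the density of genes of the same length. Itgam and Csf1r were among these 5. Of 6 eligible stroma genes 4 held 7 members, 9.24 per Mb (3.72 to 19), where 3.68 would be held at the density of genes of the same length, in Col4a1, Lama2, Pecam1 and Cdh1. No member was assigned to a cell type.

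Some members lay close to one another. How many would do so by their density alone was not computed, so the values below describe spacing and do not show clustering. The nearest other member was a median of 76.2 kb away (quartiles 18.7 and 285 kb), 530 members (15.9%, 14.7 to 17.2) had another within 10 kb and 78 had one within 1 kb, the closest pair of centres being 94 bp apart, so that their intervals overlapped. Linking members whose centres lay within 10 kb gave 208 pairs, 28 groups of 3, 5 groups of 4 and 2 groups of 5. One group of 5 was in Dirc2, a lysosomal transporter, at chr16:35730606-35747892, over 17.3 kb and introns 2, 3 and 4. The other was in Serinc5, a membrane protein known to restrict retroviruses, at chr13:93416835-93436624, over 19.8 kb and introns 1 and 2. In each group 1 member had a CTCF core.

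Of the groups of 4, 3 lay in Chd7, a chromatin remodeller, over 11.8 kb, in Itpk1, an inositol phosphate kinase, over 19.8 kb, and in Gtf2ird1, a transcription factor, over 11 kb, another lay in the last intron of Wwox over 19.7 kb, and the remaining one lay in Gnal, a G-protein subunit, over 10.3 kb. The group in Chd7 at chr4:8726845-8738670, that in Itpk1 at chr12:103902015-103921854 and that in Gnal held no CTCF core. By density, and counting genes with at least 3 members and 10 kb of deep intron, Slc12a3, a sodium chloride transporter, led with 3 members in 16 kb, at 187 per Mb. Il12rb2, a chain of the interleukin-12 receptor, followed with 4 members in 26 kb, at 154 per Mb and between 21.6 and 29.2 kb from a start. These densities rest on 3 or 4 peaks each and were picked for being high.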

How the data were processed

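Thymocyte chromatin was immunoprecipitated with either of 2 TOP2B antibodies, 1 library each. Per the methods of the study and the labels, the authors used Bowtie 1.2.0 for alignment (mm9) and HOMER, in factor style and against IgG, for the peaks of each library. Peaks were filtered by their enrichment over IgG. To raise confidence, the TOP2B peak set of the study held only peaks called with both antibodies, whereas the members were called with 1. The deposited files give peak positions of 187 bp (Santa Cruz) or 195 bp (Novus). The deposited score is 0 in every row, so no height or depth could be used. Peaks were annotated here with GENCODE M1 and the mm9 sequence (Python 3.11.15, scipy 1.17.1), and the 3332 members were checked by a count with bedtools 2.31.1. Host gene was the shortest gene with an intron at the centre, and intron numbers come from its longest coding transcript. The motif search found 500 of 500 motifs planted in made-up sequence. Shares carry exact Clopper-Pearson intervals and densities exact Poisson intervals at 95%. Differences of shares carry Newcombe intervals. Two-sided Fisher's exact tests were adjusted by Benjamini-Hochberg over 36 comparisons. The members, gene lists and tests were chosen with earlier results of these data known. The named genes were the 20 with the most members and the list genes that held any, and genes named as densest or grouped were picked after their values were seen. Repeats could not be compared, since the genome sequence used carries no repeat marks. Some list genes are not reported here by name.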

Additional observations from a re-analysis of the deposited data

How the results depend on the processing

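In all, 12 alternatives gave 94 recomputed values, of which 76 kept their side of the threshold, stayed within the main interval or, for counts, within 1.5 times the main count, 16 moved further, 2 lost their call and none reversed. With starts more than 10 kb away there were 4579 members in 2716 host genes, and the members were 27.3% of the Santa Cruz-only peaks. Of these members, 21.2% lay in a first intron, and the density was 6.72 per Mb. Their CTCF difference to closer intron peaks, then 1 to 10 kb from a start, was -2.29 percentage points (adjusted p = 0.135, Fisher's exact test). With starts more than 50 kb away there were 1647 members, 9.83% of the Santa Cruz-only peaks, in 935 host genes, with a CTCF share of 10.3%, a first-intron share of 13.2%, 14% with another member within 10 kb and 5.08 per Mb. With starts of all annotated transcripts there were 2333 members in 1417 host genes, the members were 13.9% of the Santa Cruz-only peaks, 19.5% lay in a first intron and the density was 5.56 per Mb. Merging members within 1 kb left 13.9% with another within 10 kb. The CTCF share was 3.27% without mismatch, where the difference to closer intron peaks was -1.05 percentage points (adjusted p = 0.17, Fisher's exact test), and 6.6% inside the peak. The cause of these changes was not tested. The difference to Novus-shared peaks passed the threshold under each of the 9 alternatives run for it. Introns of at most 1 Mb and chromosomes 1 to 19 only were added after seeing the data.

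A stricter peak list was not run, as the score is 0 in every row, and there was no replicate to leave out. No paired analysis was possible because each antibody has 1 library.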
